A study of Homo sapiens with 6 samples.

Results

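The genes described here encode the SR proteins, the hnRNP proteins and the core proteins of the spliceosomal snRNPs, 3 families that carry and steer pre-mRNA splicing. Members were chosen by symbol: SRSF with a number, HNRNP with further letters or digits, and SNRP with further letters or digits, leaving out pseudogenes that end in P and a number. Rows annotated with 1 symbol gave 37 genes of the 22411 genes measured: 11 snRNP genes, 16 hnRNP genes and 10 SR genes. Where a gene had several rows, the row with the highest mean was used. RefSeq lists 50 genes that fit these patterns. Of the other 13, HNRNPA1L3 had no row, and 12 were on rows that carry several symbols and were not analysed here: SRSF2, SRSF9, HNRNPA1, HNRNPA3, HNRNPCL1, HNRNPCL3, HNRNPCL4, HNRNPDL, HNRNPH2, HNRNPK, HNRNPLL and SNRPN.

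RNA came from U87, an established human glioblastoma line. The treated group was 3 arrays of cells cultured for 48 h and then kept for a further 48 h with a carborane-bearing amino acid at 1 mM, a compound that carries a cage-shaped boron cluster and that the labels name no further. The control group was 3 arrays of U87 cells labelled as having no treatment, and the labels name no vehicle. Control cells were recorded with the same 48 h of culture and further 48 h. Both groups were recorded with 10% serum and 1 mM pyruvate. The labels do not state whether the 3 replicates of a group were grown separately; the p-values rest on the spread between arrays, and that spread may be technical. The deposited value is an RMA log2 signal for each transcript cluster of the array. It compares one gene between arrays but not one gene with another.

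Splicing removes introns from pre-mRNA in the nucleus. The snRNPs are small nuclear RNAs wrapped in proteins; a ring of Sm proteins sits on most of them, and further proteins belong to the U1 particle, which finds the 5′ splice site, or to the U2 particle, which finds the branch point. SR proteins bind exons through RNA recognition motifs and recruit the splicing machinery through an arginine- and serine-rich domain. The hnRNP proteins coat nascent transcripts, often oppose exon inclusion, and also act in mRNA export, stability and localisation.

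The arrays had near-equal medians over all rows, from 5.18 to 5.24. Across genes, arrays of the same group correlated at 0.998 and arrays of different groups at 0.959 to 0.963 (Pearson; genes are not independent replicates). The glioma and mesenchymal markers VIM, CD44, FN1 and ANXA2 were bright in treated and control cells, whereas GFAP, SOX2 and OLIG2 were below the median of all genes (a log2 signal of 6.12) in both. S100A6 lay above that median in both groups, and NES did so in control cells alone, with means of 5.78 in treated and 7.67 in control cells. Of 12 measured markers of leukocytes, endothelium, neurons and oligodendrocytes, 10 lay below that median in both groups. The exceptions were CD68, at means of 16.11 in treated and 16.10 in control cells, and SNAP25, at 7.23 and 9.74. The proliferation markers moved with the treatment. All 12 fell, with a median log2 change of -5.82, led by TOP2A, MKI67, CCNA2 and PLK1 at -7.64, -7.26, -6.99 and -6.21. Their part in the results below was not tested. With RNA of whole cultures, fewer cells of a kind and less RNA per cell cannot be told apart.

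Most of these splicing factor genes were lower in treated cells. Of the 37 members, 31 fell, 3 rose and 3 were not called (limma, Benjamini-Hochberg adjusted p under 0.05 over all genes). Falls thus took 83.8% of the members, against 21.6% of all genes tested and 34.7% of the genes with a mean at or above the median. Rises took 8.11% of the members, against 24% of all genes and 40.1% of the genes with a mean at or above the median. In either direction 45.6% of all genes were called. Treated and control values did not overlap in 35 of the 37 members, against 53.5% of all genes and 80.8% of the genes with a mean at or above the median. The median log2 change of the members was -0.68, and that of all genes was 0.01. Sizes were moderate: 7 of the 37 members fell by at least 1 on the log2 scale. Falls of that size were called in 1108 of all 22411 genes. They were called in 1067 of the 11206 genes with a mean at or above the median. The range of the members ran from -1.95 in SNRPD1 to 0.40 in SRSF5.

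**Figure D1:**
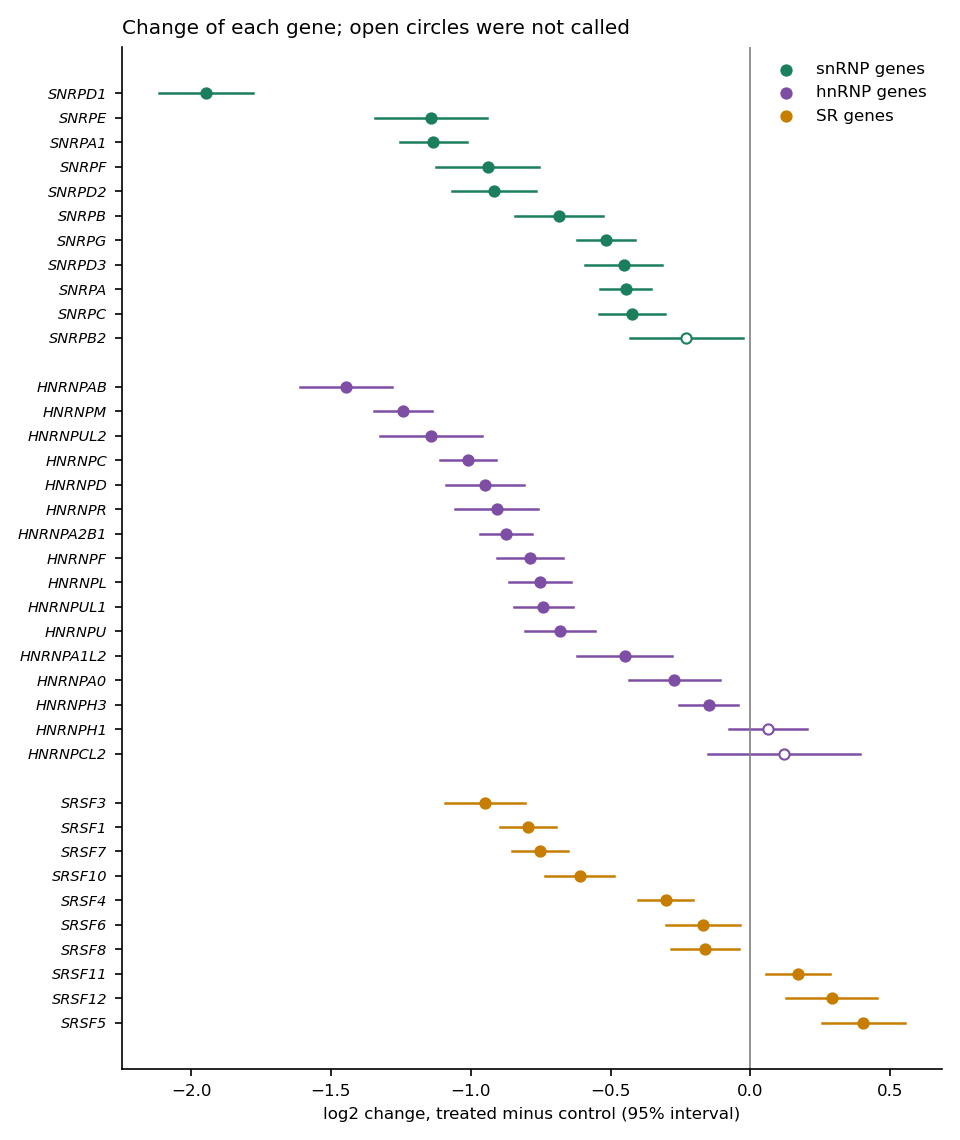
Log2 change (treated minus control, x axis) of each of the 37 genes, with the 95% interval from limma as a bar; filled circles were called and open circles were not. The snRNP genes all lie left of 0, the hnRNP genes mostly so, and the SR genes fall on both sides, from -0.95 for SRSF3 to 0.40 for SRSF5.

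The families differed in how uniform the shift was. Among snRNP genes 10 of 11 fell and none rose, with a median log2 change of -0.68. Among the hnRNP genes chosen by symbol 14 of 16 fell and none rose, with a median of -0.77. Related genes under other symbols were not counted in these families. The SR genes divided, with 7 of 10 lower and 3 higher and a median of -0.24. That share of rises lay between the 24% of all genes and the 40.1% of genes with a mean at or above the median. Of the 3 that rose, SRSF12 was near background in both groups, and SRSF11 lost its call in several other settings. Calls of SRSF6 and SRSF8, among the falls, were also lost in several. Of the members that fell by at least 1, 3 were snRNP genes, 4 were hnRNP genes and none was an SR gene. Such falls were called in 1108 of all 22411 genes and in 1067 of the 11206 with a mean at or above the median. With 10 SR genes, a count of 0 lay near these shares. In the cumulative plot, 63.6% of snRNP, 68.8% of hnRNP and 40.0% of SR genes had a log2 change of -0.5 or less, against 11.3% of all genes. The curve of all genes includes dim genes, which were called less often, and none was drawn for the brighter genes alone. Differences between the families were not tested, since members of a family are not replicates.

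**Figure D2:**
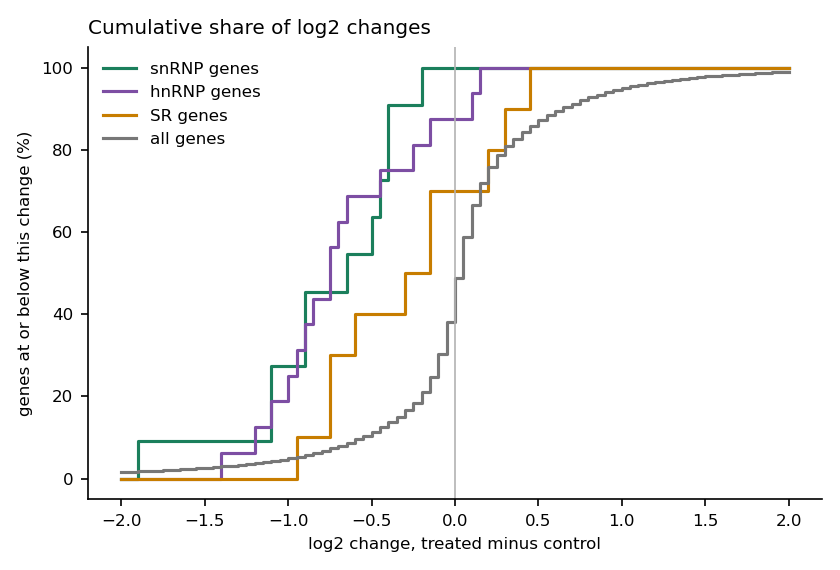
Cumulative share of genes (y axis, %) at or below each log2 change (treated minus control, x axis, read in steps of 0.05), for snRNP, hnRNP and SR genes and for all 22411 genes. At a change of -0.5 the snRNP, hnRNP and SR curves stand at 63.6%, 68.8% and 40.0%, against 11.3% for all genes, and at 0 at 100%, 87.5% and 70.0%, against 48.7%.

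Promoter sequence is a property that the symbols did not use. RefSeq promoters of build GRCh38.p14, from 250 bases before to 50 bases after the gene start, matched 36 of the 37 members. The member without one was SNRPD1, which had the largest fall. The 250 bases before the start are shown for a strongly lowered member of each family and for SRSF5, the member with the largest rise, written 5′ to 3′ on the strand of the gene. Capitals mark CCAAT boxes (CCAAT or its reverse complement ATTGG) and ETS motifs (CCGGAAGT or its reverse complement ACTTCCGG).
SNRPA1 (chr15:101295249-101295498, minus strand): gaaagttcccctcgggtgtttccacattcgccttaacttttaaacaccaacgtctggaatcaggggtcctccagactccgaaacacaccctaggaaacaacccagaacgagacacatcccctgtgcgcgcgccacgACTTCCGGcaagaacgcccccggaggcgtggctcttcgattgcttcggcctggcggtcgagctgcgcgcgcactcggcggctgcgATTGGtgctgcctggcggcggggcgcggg
HNRNPAB (chr5:178204283-178204532, plus strand): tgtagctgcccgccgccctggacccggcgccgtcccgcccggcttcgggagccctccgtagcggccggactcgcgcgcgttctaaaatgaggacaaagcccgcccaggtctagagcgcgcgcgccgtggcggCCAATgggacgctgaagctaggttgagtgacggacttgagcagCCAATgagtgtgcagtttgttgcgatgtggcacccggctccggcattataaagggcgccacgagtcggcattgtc
SRSF3 (chr6:36594112-36594361, plus strand): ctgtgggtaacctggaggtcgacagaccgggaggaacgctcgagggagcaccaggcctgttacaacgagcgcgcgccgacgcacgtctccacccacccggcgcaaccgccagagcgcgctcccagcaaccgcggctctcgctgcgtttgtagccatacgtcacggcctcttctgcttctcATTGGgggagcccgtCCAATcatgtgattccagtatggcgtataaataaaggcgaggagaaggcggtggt
SRSF5 (chr14:69766892-69767141, plus strand): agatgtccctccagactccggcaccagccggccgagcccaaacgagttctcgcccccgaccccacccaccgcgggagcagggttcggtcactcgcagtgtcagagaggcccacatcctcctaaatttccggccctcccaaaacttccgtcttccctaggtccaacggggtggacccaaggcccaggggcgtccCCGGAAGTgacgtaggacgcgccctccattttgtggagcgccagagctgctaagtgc
The CCAAT box was in 11 of 16 hnRNP promoters (68.8%), 4 of 10 snRNP promoters (40.0%) and 2 of 10 SR promoters (20.0%), against 35.7% of all 27305 promoters. HNRNPAB had 2 of them on its own strand, 118 and 75 bases before the start, and SRSF3 had 2 in opposite orientations, 70 and 55 bases before it. An ETS motif was in 3 snRNP, 1 hnRNP and 2 SR promoters, which is 16.7% of the members and 4.44% of all promoters. It occurred in the lowered SNRPA1 and, 57 bases before the start, in the raised SRSF5. An E-box (CACGTG) was in 4 hnRNP promoters and in no snRNP or SR promoter (11.1% of members, 7.43% of all). E2F motifs (TTTGGCGC, TTTCCCGC, TTTGCCGC or TTTCGCGC) were in 2 members (5.56%, against 3.33%), and the YY1 motif ATGGCGGC in 1 (2.78%, against 3.21%). Both strands were searched, no motif contains another, and a match describes letters in this window, not a bound site. The set of all promoters was not matched to the members in signal level, and the promoters shown were picked among those with a marked motif.

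The Sm proteins B, D1, D2, D3, E, F and G form the ring on the snRNA, and all 7 of their genes fell, with a median log2 change of -0.92. SNRPD1, which encodes Sm D1, had log2 signals of 10.53, 10.35 and 10.47 in treated cells, against 12.28, 12.46 and 12.45 in control cells. Every treated array lay far below every control array. The log2 change was -1.95 (SE 0.07, adjusted p = 8.85e-07, limma), a linear signal 74.1% lower. SNRPE, for Sm E, had 7.57, 7.46 and 7.27 in treated cells, against 8.49, 8.60 and 8.64 in control cells. Its groups were also clearly apart, with a log2 change of -1.14 (SE 0.08, adjusted p = 2.64e-05, limma). SNRPF, for Sm F, was at 5.54, 5.62 and 5.41 in treated cells and at 6.36, 6.45 and 6.58 in control cells, a log2 change of -0.94 (SE 0.08). Its treated mean lay below the median of all genes, close to background, so the size of its fall is uncertain.

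Log2 changes of the other ring genes were -0.92 for SNRPD2, -0.68 for SNRPB, -0.52 for SNRPG and -0.45 for SNRPD3, with adjusted p of 1.79e-05 to 4.88e-04 (limma). SNRPD1 and SNRPD3, whose proteins sit in the same ring in equal number, thus had changes of -1.95 (95% interval -2.11 to -1.78) and -0.45 (-0.59 to -0.32), which do not overlap. SNRPE and SNRPG have processed pseudogenes in the genome, and their probes may share signal with such copies.

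The proteins that mark a particle also had lower mRNA, with 1 member not called. SNRPA1, for the U2 protein U2 A prime, was at 11.70, 11.81 and 11.69 in treated cells, against 12.82, 12.91 and 12.87 in control cells. The arrays within each group lay close together, and the log2 change was -1.13 (SE 0.05, adjusted p = 2.34e-06, limma). SNRPB2, for its partner U2 B double prime, was at 10.70, 10.38 and 10.44 in treated cells, against 10.71, 10.77 and 10.73 in control cells. Treated replicate 1 lay almost at the control level, and the log2 change of -0.23 was not called (adjusted p = 0.0659, limma). Without that array the change was -0.33 and was called (adjusted p = 0.00225). In the U1 particle, SNRPA, whose protein binds a stem-loop of U1 snRNA, changed by -0.45 (SE 0.04), and SNRPC, whose protein stabilises pairing with the 5′ splice site, by -0.42 (SE 0.05). Both fell.

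**Figure D3:**
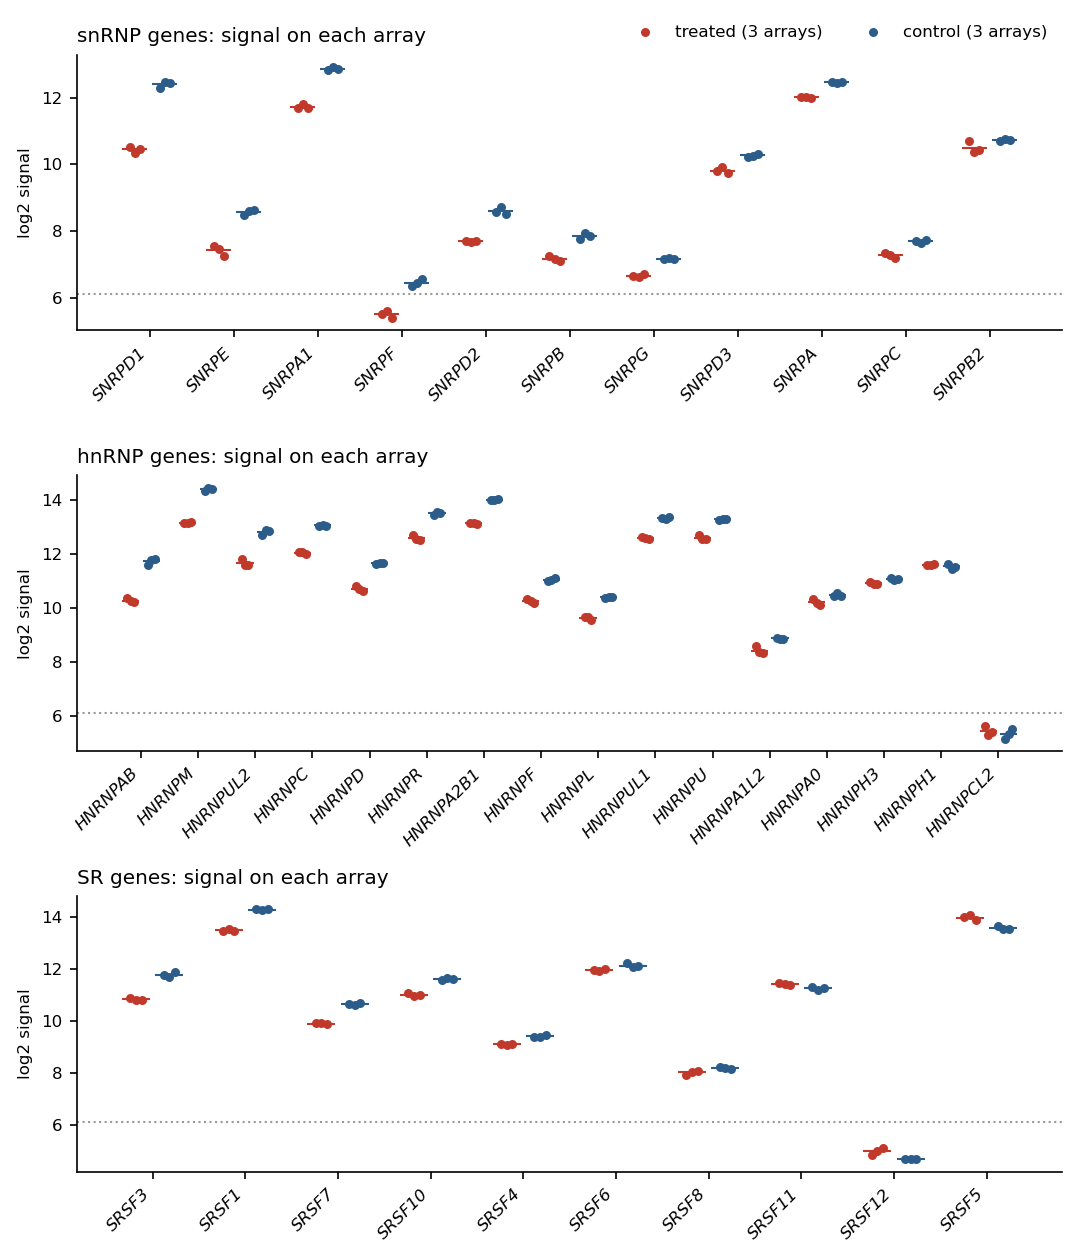
Log2 signal (y axis) of each gene on each array, treated arrays left of control arrays, in 3 panels for snRNP, hnRNP and SR genes; short lines are group means (n = 3 arrays each) and the dotted line is the median of all genes, 6.12. The separation is widest for SNRPD1, the treated points lie above the control points in SRSF5, SRSF11 and SRSF12, and HNRNPCL2 and SRSF12 lie below the dotted line in both groups.

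The hnRNP genes with the largest falls encode proteins of different structure. HNRNPAB, an A/B-type protein also known as a DNA-binding factor, was at 10.35, 10.25 and 10.21 in treated cells, against 11.59, 11.77 and 11.79 in control cells. The gap between groups was many times the spread within them, with a log2 change of -1.45 (SE 0.07, adjusted p = 3.08e-06, limma), a linear signal 63.3% lower. HNRNPM, a regulator of alternative splicing that binds G- and U-rich RNA, was at 13.12, 13.14 and 13.16 in treated cells, against 14.33, 14.43 and 14.39 in control cells. All treated arrays lay below all control arrays, with a log2 change of -1.24 (SE 0.04, adjusted p = 7.54e-07, limma). HNRNPUL2, a relative of HNRNPU linked to the DNA damage response, was at 11.79, 11.60 and 11.59 in treated cells, against 12.69, 12.89 and 12.83 in control cells (log2 change -1.14, SE 0.08). HNRNPC, which binds uridine tracts and keeps cryptic exons out of mRNA, was at 12.08, 12.05 and 12.00 in treated cells, against 13.04, 13.08 and 13.04 in control cells (log2 change -1.01, SE 0.04). In both genes all treated arrays lay below all control arrays.

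A middle group of 7 hnRNP genes changed by between -0.95 and -0.68. It held HNRNPD at -0.95, the protein AUF1 that binds AU-rich elements in mRNA, HNRNPR at -0.91 and HNRNPA2B1, an abundant A/B-type protein with a role in RNA transport, at -0.87. HNRNPF, which binds G-tracts, changed by -0.79, HNRNPL, which binds CA-rich RNA, by -0.75, HNRNPUL1 by -0.74 and HNRNPU, the nuclear scaffold protein SAF-A, by -0.68. All 7 fell, with adjusted p of 2.32e-06 to 3.36e-05 (limma).

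For HNRNPU a second row went the other way. The platform annotation calls that row HNRNPU-AS1, a name that RefSeq now lists as a synonym of HNRNPU. It was at 11.31, 11.61 and 11.96 in treated cells, against 10.52, 10.27 and 10.44 in control cells, and the treated arrays differed among themselves more than in the main row. Its log2 change was 1.22 (SE 0.16, adjusted p = 6.02e-04 by limma over the 23781 rows with 1 symbol). When the HNRNPU rows were averaged, the gene's change turned to 0.27 (adjusted p = 0.0195, limma). The second row of HNRNPR changed by -0.34 (SE 0.06), a smaller fall than in the row used.

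The remaining hnRNP genes had smaller changes. HNRNPA1L2, a retrocopy close in sequence to HNRNPA1, changed by -0.45 (SE 0.07), and its probes may share signal with that gene. HNRNPA0 changed by -0.27, a call lost without control replicate 2 (adjusted p = 0.0509, limma; -0.23). The G-tract binding genes of the F/H group were unlike each other. Beside HNRNPF at -0.79 (95% interval -0.90 to -0.67), HNRNPH3 fell by 0.15 (adjusted p = 0.0294, limma), and HNRNPH1 was not called, at a log2 change of 0.06 (interval -0.08 to 0.20). The call of HNRNPH3 was lost without treated replicate 2 or 3 or control replicate 1 or 3, at adjusted p of 0.0806 to 0.0929. It was also lost with the replicate number as a block (adjusted p = 0.0570, limma). HNRNPCL2, a copy related to HNRNPC, was not called (log2 change 0.12) and lay below the median of all genes in both groups.

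Among SR genes, 4 had clear falls. SRSF3, the smallest SR protein and an adaptor for mRNA export, was at 10.91, 10.81 and 10.83 in treated cells, against 11.79, 11.71 and 11.90 in control cells. The treated arrays all lay well below the control arrays, with a log2 change of -0.95 (SE 0.06, adjusted p = 1.26e-05, limma), a linear signal 48.2% lower. SRSF1, the founding SR protein and a known oncogene when overexpressed, was at 13.49, 13.55 and 13.49 in treated cells, against 14.34, 14.27 and 14.31 in control cells. Its change was -0.80 (SE 0.04, adjusted p = 5.15e-06, limma). SRSF7, a relative of SRSF3 with a zinc knuckle, was at 9.92, 9.92 and 9.89 in treated cells, against 10.66, 10.62 and 10.71 in control cells, a log2 change of -0.75 (SE 0.04). The groups of both genes were far apart relative to their spread. SRSF10, which represses splicing when it is dephosphorylated, was at 11.10, 10.96 and 11.01 in treated cells, against 11.59, 11.68 and 11.63 in control cells (log2 change -0.61, SE 0.05). That row belongs to an unlocalised scaffold of chromosome 1, and the gene's second row had a log2 change of -0.54 (SE 0.05).

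Small falls were measured for 3 further SR genes. SRSF4, with a long arginine-serine domain, changed by -0.30 (SE 0.04, adjusted p = 6.74e-04, limma). SRSF6 fell by 0.17 (adjusted p = 0.0436, limma), and its call was lost without any 1 array other than control replicate 2, at adjusted p of 0.0679 to 0.124. With the replicate number as a block that call was also lost (adjusted p = 0.0575, limma). SRSF8, a retrocopy related to SRSF2, fell by 0.16 (adjusted p = 0.0369, limma). Its call was lost without any 1 array other than treated replicate 3, at adjusted p of 0.0674 to 0.109. The block setting lost it as well (adjusted p = 0.0859, limma).

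The 3 SR genes that rose did so by less than the clear falls. SRSF5, an SR protein with paired RNA recognition motifs, was at 14.00, 14.08 and 13.91 in treated cells, against 13.68, 13.56 and 13.54 in control cells. All treated arrays lay above all control arrays, with a log2 change of 0.40 (SE 0.06, 95% interval 0.26 to 0.55, adjusted p = 0.00135, limma). SRSF12, a splicing repressor related to SRSF10, was at 4.86, 5.00 and 5.12 in treated cells, against 4.70, 4.69 and 4.72 in control cells. Its log2 change was 0.29 (SE 0.07, adjusted p = 0.0112, limma), but its signal lay below the median of all genes in both groups, near background. SRSF11 was at 11.48, 11.45 and 11.39 in treated cells, against 11.31, 11.21 and 11.29 in control cells. Its log2 change of 0.17 (adjusted p = 0.0235, limma) was not called with arrays centred on their medians (0.15, adjusted p = 0.0730) or with repeated quantile normalization (0.10, adjusted p = 0.151), nor without treated replicate 1 or 2 or control replicate 2 or 3 (adjusted p of 0.0512 to 0.0785).

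Genes around the 3 families were read from lists of splicing factors, and their calls differed between lists. Over all genes, 21.6% were called lower and 24% higher. Among genes with a mean at or above the median these shares were 34.7% and 40.1%. Proteins of the U1, U4/U6 and U5 particles whose symbols do not start with SNRP were mostly lower, with 18 of 23 measured genes lower, 2 higher and a median log2 change of -0.55. PPIH, a prolyl isomerase of the tri-snRNP, changed by -1.55, the LSM ring genes LSM3 and LSM4 by -1.01 and -0.94, and the helicase gene DDX23 by -0.95. SNU13, which binds U4 snRNA and box C/D RNAs, rose by 0.42 and PRPF3 by 0.30. Without control replicate 2 or 3, 1 gene of the list was called higher. The same held with the replicate number as a block and with repeated quantile normalization. SNRNP70, the third U1-specific protein beside SNRPA and SNRPC, changed by -0.76.

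Among U2 and branch point factors, 8 of 15 fell and 1 rose, with a median log2 change of -0.21. U2AF2, which reads the polypyrimidine tract, changed by -1.28, SF3A2 by -0.63, PUF60 by -0.54 and SF3B4 by -0.50, and DDX46 rose by 0.20. The call of DDX46 (adjusted p = 0.0334, limma) was lost without any 1 control array, with median centring and with repeated quantile normalization. SF3B1, the branch point scaffold that is often mutated in blood cancers, was not called (log2 change -0.0033). Genes for snRNP assembly and import fell in 8 of 16 and rose in none (1 rose without treated replicate 1), with a median of -0.19. WDR77, the partner of the methylase PRMT5, changed by -1.04, GEMIN5 by -0.53, the export adaptor gene PHAX by -0.52 and GEMIN4 by -0.43. Of 7 minor spliceosome genes, ZRSR2 rose by 0.94 and SNRNP25, near background in treated cells, fell by 0.48, while 5 were not called (median -0.06). Without treated replicate 1, and also with repeated quantile normalization, 2 were called lower.

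Of 21 Prp19 complex and catalytic-step genes, 11 rose and 6 fell, with a median log2 change of 0.14. With repeated quantile normalization 9 rose and 9 fell, with a median of 0.06. In the main fit, 40.1% of the genes with a mean at or above the median were called higher and 34.7% lower. SLU7, a factor of the second step, changed by 0.94, SYF2 by 0.70, BCAS2 by 0.68 and BUD31 by 0.60. CDC5L changed by -1.35, AQR by -0.76, DHX15 by -0.52 and DHX8 by -0.50. Of 9 genes for kinases and the nuclear importer of SR proteins, 5 rose and 3 fell, with a median of 0.18. The CLK kinase genes CLK3, CLK1 and CLK4 rose by 0.75, 0.63 and 0.59 and DYRK1A by 0.62, whereas SRPK1, the cytoplasmic SR kinase, changed by -0.62, CLK2 by -0.18 and SRPK3, near background in both groups, by -0.12. Without control replicate 1 or 3, 1 gene of this list was called lower in place of 3, as also with the replicate number as a block.

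Of 19 genes for SR-related proteins outside the SRSF symbols, 8 rose, 7 fell and 4 were not called (median 0.07). These counts lay near the shares of genes with a mean at or above the median, 40.1% higher and 34.7% lower. With median centring or repeated quantile normalization 7 of the 19 rose and 7 fell. RBM39 rose by 0.85, RSRP1 by 0.62, PNISR by 0.60 and RSRC2 by 0.49, and ACIN1, RSRC1, SRRM1 and TRA2B changed by -1.03, -1.01, -0.56 and -0.46. Other splicing regulators fell in 19 of 30 and rose in 8, with a median of -0.40. TAF15 changed by -1.73, NONO by -1.0, and TIA1 by -0.93. MBNL3, near background in treated cells, and SYNCRIP, a relative of HNRNPR, both changed by -0.88. MBNL2 rose by 0.99, CELF1 by 0.52, PCBP3 by 0.51 and the neuronal regulator NOVA1 by 0.50.

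**Figure D4:**
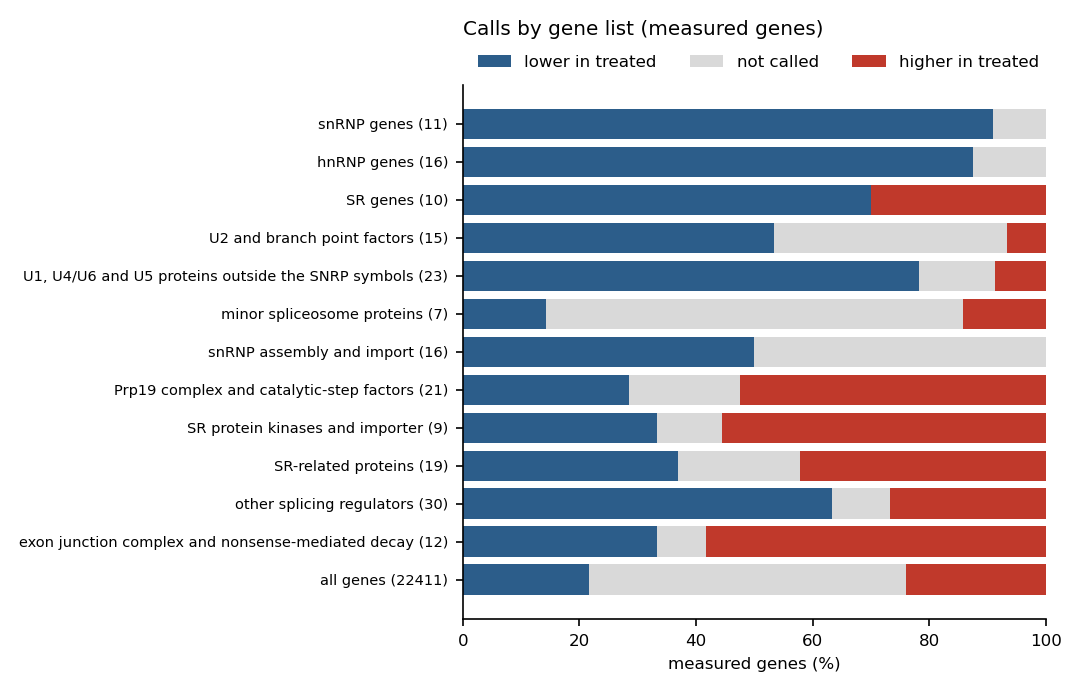
Share of measured genes (x axis, %) lower, not called or higher in treated against control cells for the 3 families, 9 further gene lists and all genes, with the number measured in brackets. The snRNP and hnRNP genes have no higher call, and the SR genes have 30.0% higher. Of all genes, 24% are higher and 21.6% lower. The kinase and exon junction lists hold more higher than lower calls, and the Prp19 and SR-related lists do so here but have equal numbers with repeated quantile normalization.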

How the data were processed

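Total RNA of 6 U87 samples was measured on Affymetrix whole-transcript arrays, 3 treated and 3 control, grouped by the sample titles. The submitters' processing notes name RMA and Transcriptome Analysis Console 4.0.1.36 as the tools behind the deposited log2 signals. A genome build for these signals was not given in the sources. RMA equalises array distributions, so a change of total RNA per cell is not visible. Values ran from 2.44 to 19.46, and 181 to 196 per array exceeded 16, above a 16-bit scanner's limit, so the sizes of changes may be stretched.

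Of 67528 rows, 23781 had 1 symbol in the platform annotation, updated to RefSeq (GRCh38.p14), and gave 22411 genes. All were fitted together with limma 3.58.1 in R 4.3.3 (lmFit, eBayes), without a filter, and a gene was called where its adjusted p (Benjamini-Hochberg) was below 0.05. For arrays, their number limits the precision. The fit was checked on simulated data. Members and gene lists were chosen with earlier results of these data known, and subgroups by protein role after values were seen.

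Every member is named; all 6 values are given for up to 4 called rises and 4 called falls per family with the largest changes and for SNRPB2 and the HNRNPU-AS1 row, picked after their values were seen. Up to 4 called genes per list and direction are named; a tie in the other regulators gave 5, and SNRNP70 and SF3B1 were added after their values were seen. The alternatives were fits without each array in turn, with the replicate number as a block, without dim genes, with the rows of a gene averaged, median centring, repeated quantile normalization, array weights, a trend with robust estimation, a log2 change of at least 1, a scale compressed to 16, symbols as given and protein-coding genes alone. Same-numbered arrays did not deviate together (correlations of -0.08, 0.04 and -0.05), so numbers were not taken as pairs. Figures were drawn with matplotlib 3.10.9.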

Additional observations from a re-analysis of the deposited data

How the results depend on the processing

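Under 16 of the 17 other settings (all but the minimum log2 change), 29 of the 37 genes kept their direction and their call, of which SNRPF, SRSF12 and HNRNPCL2 had no value without dim genes and so 15 settings; the exceptions were SNRPB2, HNRNPU, HNRNPA0, HNRNPH1, HNRNPH3, SRSF6, SRSF8 and SRSF11. With a minimum log2 change of 1, calls dropped to 3 snRNP and 4 hnRNP genes lower, 0 SR genes in either direction, and 1116 higher and 1108 lower of all genes, since that setting removes small changes by construction. With the rows of a gene averaged, HNRNPU turned to 0.27 and 1 hnRNP gene was called higher. With repeated quantile normalization HNRNPH1 turned to -0.012. Over all genes that setting called 4880 higher and 5301 lower, against 5369 higher and 4843 lower in the main fit. SNRPB2 was also called lower without dim genes, with repeated quantile normalization, with array weights and among protein-coding genes alone. With the replicate number as a block (replicate block), 10 snRNP, 13 hnRNP and 5 SR genes were lower and 2 SR genes higher. Leaving out 1 array gave 10 to 11 snRNP, 13 to 14 hnRNP and 5 to 6 SR genes lower and 2 to 3 SR genes higher. Across settings on the deposited scale the family medians ran from -0.73 to -0.60 for snRNP, -0.83 to -0.74 for hnRNP and -0.31 to -0.23 for SR genes; on the compressed scale they were -0.56, -0.63 and -0.19. HNRNPCL2, SRSF12 and the treated SNRPF signal were near background, which limits what their values can show.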

Other observations

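Exon junction complex genes and genes of nonsense-mediated decay, the pathway that removes mRNAs with early stop codons and that acts on poison-exon transcripts of many SR genes, were called in both directions. Of 12 measured genes, 7 rose, 4 fell and 1 was not called, and their median log2 change was 0.32. Among all genes with a mean at or above the median, 40.1% were called higher and 34.7% lower. The share of this list that fell lay near the latter. The junction complex genes RBM8A, EIF4A3, MAGOH and MAGOHB changed by -0.95, -0.72, -0.37 and -0.35, all falls, whereas CASC3, another core gene of that complex, rose by 0.22 (adjusted p = 0.00416, limma). The decay genes SMG1 (the kinase that phosphorylates UPF1), UPF2, SMG9 and SMG6 rose by 1.15, 0.87, 0.83 and 0.64 on the log2 scale. UPF1 itself was not called (log2 change -0.08, adjusted p = 0.334, limma); UPF1 and CASC3 were picked after their values were seen. SMG1 was at a mean of 13.50 in treated and 12.35 in control cells, and the counts of 7 higher and 4 lower in this list were the same in all settings other than the minimum log2 change.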
